A study of Mus musculus with 48 samples.

Results

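Sp5, Nkx1-2, Axin2, Lef1, Tcf7, Wnt3, Cdx1, Fgf8, Nkd1 and Mixl1 are 10 mouse genes that respond to Wnt signalling or mark the primitive streak, of 55335 genes in the deposited tables. They were listed by symbol, and the list was chosen by earlier results of these same libraries, in which several of the genes stood out in cells that had lost Mtrex. The Mtrex-KO values below are therefore a description of what chose the genes and carry no test.

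Wnt ligands bind Frizzled receptors and LRP co-receptors, which stops a destruction complex of Axin, APC and the kinase GSK-3 from marking β-catenin for breakdown. Stabilised β-catenin enters the nucleus and joins the TCF/LEF proteins on target genes, several of which encode feedback inhibitors of the pathway itself. In the mouse embryo this pathway starts the primitive streak, where mesoderm and endoderm arise, and in embryonic stem cell culture an inhibitor of GSK-3 is used to switch it on without a ligand.

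The study examined NRDE2, the RNA helicase MTREX and CCDC174, proteins that act on RNA in the nucleus, in mouse embryonic stem cells. RNA was measured by stranded total RNA-seq in 28 libraries of 14 groups, and ribosome-protected RNA by Ribo-seq in 4 libraries of 2 groups. Every group had 2 libraries. The RNA-seq libraries held between 28683644 and 36272309 reads in genes, and the Ribo-seq libraries between 3475051 and 5035940.

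All groups came from mouse embryonic stem cell lines of a 129 and C57BL/6 cross, grown in serum with LIF, a MEK inhibitor and the GSK-3 inhibitor, so every library, the controls included, comes from cells kept with an inhibitor of the kinase that marks β-catenin; the protein itself was not measured. Nrde2-KO cells carried a conditional Nrde2 allele and Cre-ERT2 at Rosa26 and received 100 nM 4-hydroxytamoxifen for 4 days, and Nrde2-WT is the same line untreated. Mtrex-KO and Mtrex-WT are the matching conditional Mtrex line with 3 days of the same dose and without it. Nrde2-d200 cells make an NRDE2 that lacks its amino-terminal part, and Nrde2-D174R cells an NRDE2 with a point mutation; both are edited lines without tamoxifen and are compared with Nrde2-WT. Ccdc174-dTAG cells carry a Ccdc174-FKBP12F36V fusion and received 500 nM dTAG-13 for 24 h, and Ccdc174-WT is that fusion line untreated. Nrde2-KO and Nrde2-WT were sequenced again in a second experiment. That second Nrde2 experiment and the Ccdc174 experiment each have groups with 0.1 mg/ml cycloheximide (CHX), an inhibitor of translation, for 4 h. The edited lines are clones, and because only the knockout or depleted cells received tamoxifen or dTAG-13, an effect of the drug or of Cre cannot be told apart from the loss of the protein. Nrde2-d200 and Nrde2-D174R are lines other than Nrde2-WT, so an effect of the mutation cannot be told apart from a difference between clones.

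Levels are given as normalized CPM, counts scaled to library size so that most genes have equal levels across libraries. A gene is called changed when limma's adjusted p is below 0.01 and its log2 fold change is above 1 or below -1. Genes with a mean under 0.5 CPM in the libraries of a fit were not tested. Sp5, Nkx1-2, Axin2, Tcf7, Cdx1, Nkd1 and Mixl1 passed this filter without CHX, which makes 7 of 10. Lef1 passed as well once CHX libraries were included, which makes 8, but only because its levels with CHX are higher, so its change under CHX is given as values and not as a call. Wnt3 and Fgf8 did not pass in any fit. In Ribo-seq alone 6 of 10 passed, and Nkd1 was among those that did not.

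The targeted genes were read first as a check of the labels. Nrde2 RNA was at 19.2 and 20.3 in Nrde2-KO against 41.3 and 40.3 normalized CPM in Nrde2-WT, at 19.8 and 19.6 against 53.3 and 51.9 in the second experiment, and at 2.33 and 3.24 against 12.2 and 14.2 in Ribo-seq. These 3 comparisons have Nrde2 lower in both knockout libraries. With CHX, Nrde2 RNA was at 257 and 249 in the libraries labelled Nrde2-KO and at 242 and 224 in their controls, so it was not lower and does not check those labels. Other genes run the way those labels say. Wnt8a was at 1.67 and 1.15 there against 0.144 and 0.0483. Markers of 2-cell-like cells summed to 369 and 362, with Eif1a at 296 and 295, against 334 and 327, with Eif1a at 327 and 321. Apart from Eif1a these markers are low in the controls, and the knockout libraries count towards the filter, so their calls are not used as a check. Mtrex RNA was at 46.2 and 41.3 in Mtrex-KO against 118 and 111 in Mtrex-WT. Ccdc174 RNA was at 35.2 and 38 in Ccdc174-dTAG against 28.2 and 28.2, and it checks nothing there because dTAG-13 removes the protein and not the RNA. The cells are labelled embryonic stem cells, and 12 of 12 markers of naive mouse embryonic stem cells had reads in every library.

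Between genes, levels can be compared only per length. In Nrde2-WT the order per kilobase of exon was Cdx1 at 15.7, Tcf7 at 14.9, Axin2 at 5.39, Nkx1-2 at 5.1 and Sp5 at 0.886 normalized CPM. Mixl1 at 0.169, Nkd1 at 0.162, Fgf8 at 0.118, Lef1 at 0.0421 and Wnt3 at 0.0371 made up the low end. The genes thus fall into 4 that are readily measured, Sp5 in between, and 5 that are read from few molecules.

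The untreated wild-type groups already differed. Mean Sp5 ranged from 0.439 normalized CPM in Ccdc174-WT to 3.44 in Mtrex-WT, a 7.84-fold range. Mean Nkx1-2 ranged 4.13-fold, from 8.4 in Ccdc174-WT to 34.7 in Nrde2-WT of the second experiment, and mean Cdx1 4.12-fold, from 13.4 in Ccdc174-WT to 55 in Mtrex-WT. Axin2 with a 1.5-fold and Tcf7 with a 1.41-fold range varied least among the well-measured genes. The lowest and highest group did not overlap for any of these genes. Libraries of 1 line also differed between experiments: Nrde2-WT, sequenced in 2 of them, had Nkx1-2 at 15.2 and 18.2 and then at 31.1 and 38.3, and Mixl1 at 0.362 and 0.413 and then at 0.904 and 0.898. The differences were not tested, and each knockout is compared only with its own wild type.

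**Figure D1:**
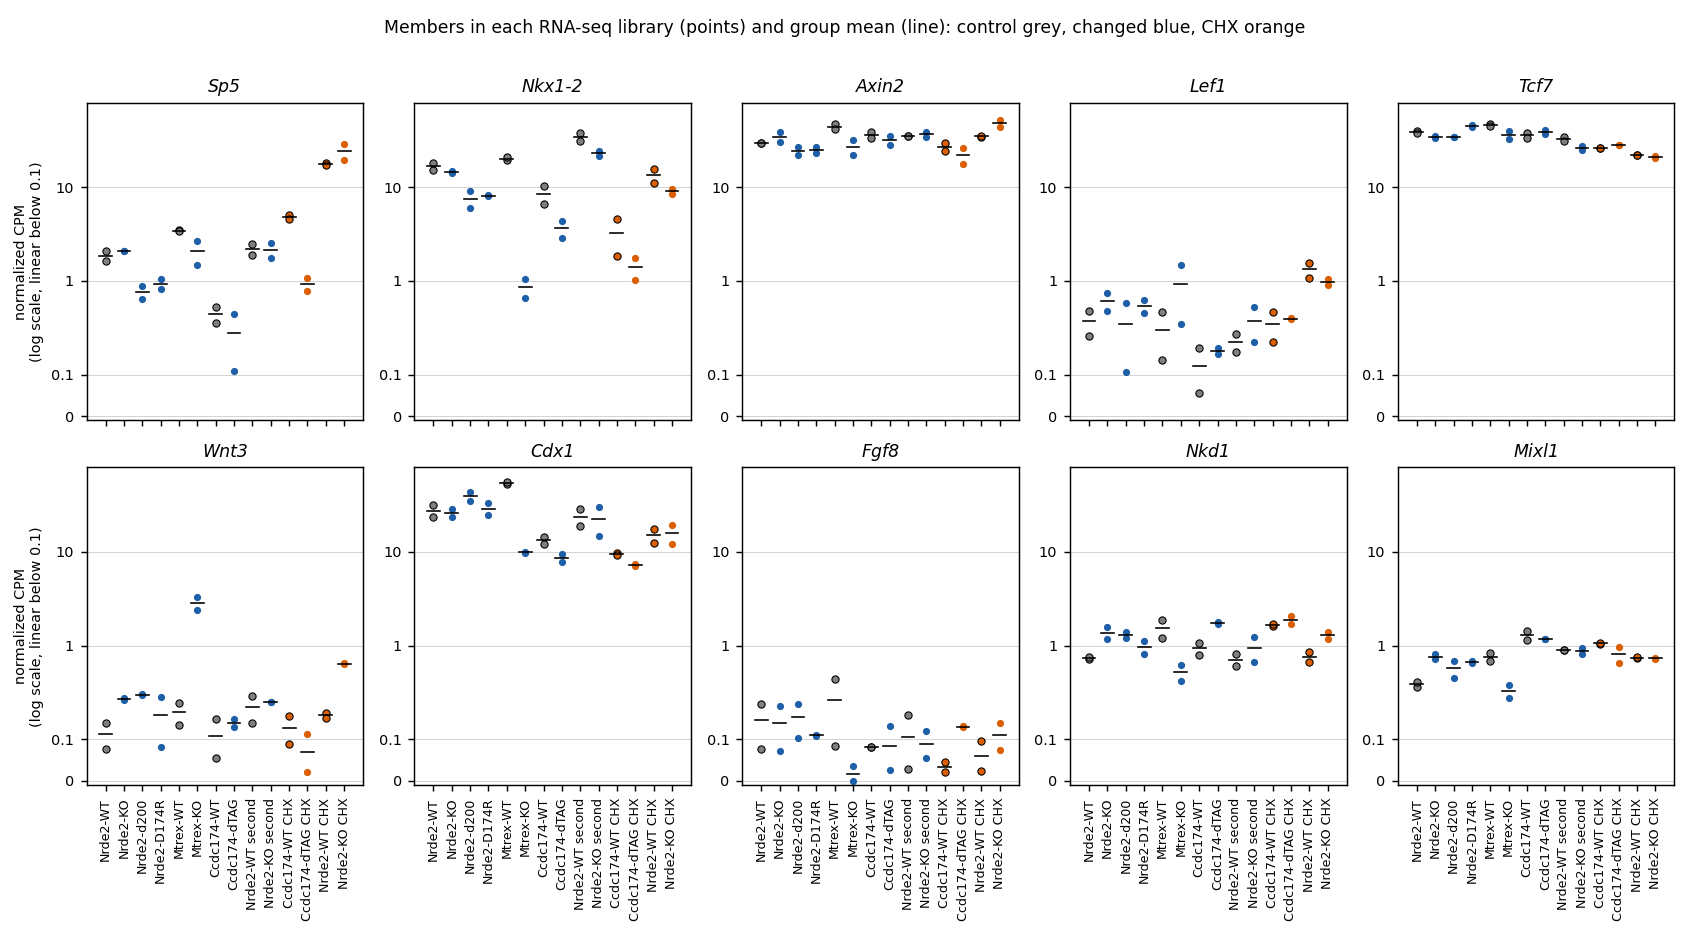
Normalized CPM of each of the 10 genes in the 14 RNA-seq groups, 1 point per library, on a log axis that is linear below 0.1; grey marks wild type, blue the changed cells and orange CHX. Nkx1-2 has its lowest mean in Mtrex-KO, with points at 0.659 and 1.04 that overlap with Ccdc174-dTAG with CHX at 1.76 and 1.03, Wnt3 its highest, 3.29 and 2.42, in the same group, and Sp5 its highest, 28.8 and 19.7, in the CHX libraries labelled Nrde2-KO.

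Wnt3 encodes the ligand that is needed to form the primitive streak. It lies on chromosome 11 from 103774150 to 103817957 on the plus strand of GRCm38 (ENSMUSG00000000125). Wnt3 was at 3.29 and 2.42 normalized CPM in Mtrex-KO and at 0.245 and 0.142 in Mtrex-WT. Both knockout libraries lay above every other RNA-seq library, in which Wnt3 never exceeded 0.648. In reads this is 165 against 14, a ratio of 14.7 with a 95% counting interval of 8.51 to 27.5, and such intervals here cover counting error only. Libraries of the same group differ by more than that: chi-square per degree of freedom over genes was 87 in Mtrex-KO and 12.5 in Mtrex-WT. Intervals and standard errors of members in Mtrex-KO describe the values that chose them and are no test. Wnt3 reads were also more frequent in the libraries labelled Nrde2-KO with CHX, at 0.639 and 0.648 normalized CPM against 0.191 and 0.169. That is 52 reads against 15, a ratio of 3.57 with an interval of 1.98 to 6.83. The groups did not overlap. Wnt3 is below the filter, and limma without the filter gave a log2 fold change of 1.08 with an adjusted p of 0.017, which is not called. In the order of group means the 4 highest groups, from Nrde2-KO at 0.27 and Nrde2-d200 at 0.3 up, stood apart from their neighbours, and the lower 10 overlapped except between Ccdc174-dTAG at 0.151 and Nrde2-WT with CHX at 0.18. In Ribo-seq Wnt3 had 3 and 6 reads in Nrde2-KO and 1 and 0 in Nrde2-WT, too few to test.

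Fgf8 encodes a growth factor that mesoderm cells need to leave the streak. Its locus is on chromosome 19 from 45736798 to 45742915 on the minus strand (ENSMUSG00000025219). Fgf8 had between 0 and 16 reads in each RNA-seq library. Mtrex-WT held 16 and 3 reads and Mtrex-KO 1 and 0, a ratio of 15.2 in favour of the wild type with an interval of 2.42 to 633. The higher count rests on 1 library. Groups were also apart for Ccdc174-dTAG with CHX, with 6 and 6 reads against 2 and 1, for CHX in Ccdc174-WT, with 2 and 1 against 3 and 3, and in Ribo-seq, with 2 and 4 in Nrde2-KO against 1 and 0. Without the filter, the lowest limma adjusted p of Fgf8 outside Mtrex-KO was 0.15. In the order of means all 14 groups overlapped with their neighbours, which says nothing of groups further apart.

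Axin2 encodes a scaffold of the destruction complex that Wnt signalling induces in most cells, which makes it a common readout of the pathway. The gene is on chromosome 11 from 108920349 to 108950783 on the plus strand (ENSMUSG00000000142). Axin2 had 32.1 and 22 normalized CPM in Mtrex-KO and 47 and 41.9 in Mtrex-WT. The knockout libraries lay below both controls, with a log2 fold change of -0.76 and a standard error of 0.16. Under CHX Axin2 was lower in both libraries in Ccdc174-dTAG, at 26.5 and 17.9 against 35.1 and 28.5, by -0.55 with a limma adjusted p of 0.00777, which is below the fold threshold. In Ccdc174-WT with CHX it was at 30 and 24.1 against 39.1 and 33.2, lower in both by -0.43 with an adjusted p of 0.0309. Its group means spanned 2.18-fold, from 22.2 in Ccdc174-dTAG with CHX to 48.4 in the libraries labelled Nrde2-KO with CHX, and neighbours in that order overlapped except the second Nrde2-KO at 36.9 and Mtrex-WT at 44.5. In the libraries labelled Nrde2-KO with CHX, Axin2 was at 52.7 and 44.1 against 34.3 and 35.5. Both were above both controls, by 0.44 on the log2 scale, with a limma adjusted p of 0.0481, which is not called.

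Nkd1, a target gene as well, encodes a protein that binds Dishevelled and dampens the signal. It is on chromosome 8 from 88521354 to 88594884 on the plus strand (ENSMUSG00000031661). Nkd1 was at 1.57 and 1.19 normalized CPM in Nrde2-KO and at 0.723 and 0.749 in Nrde2-WT. Both knockout libraries were above both controls, with a log2 fold change of 0.70 and a limma adjusted p of 0.0549. In Ccdc174-dTAG it was at 1.77 and 1.71 against 1.07 and 0.797, again higher in both, by 0.75 with an adjusted p of 0.0767. With CHX the libraries labelled Nrde2-KO were at 1.18 and 1.4 against 0.67 and 0.845, higher by 0.60 with an adjusted p of 0.0256. None of these is called. In the second Nrde2 experiment the groups overlapped, with 1.24 and 0.664 in the knockout against 0.817 and 0.599. Mtrex-KO went the other way, with 0.416 and 0.621 against 1.2 and 1.87 and a log2 fold change of -1.20 with a standard error of 0.27.

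Lef1 and Tcf7 encode DNA-binding partners of β-catenin and are Wnt targets in many tissues. Lef1 lies on chromosome 3 from 131110471 to 131224356 on the plus strand (ENSMUSG00000027985), and Tcf7 on chromosome 11 from 52252371 to 52283014 on the minus strand (ENSMUSG00000000782). Lef1 was near the limit of detection without CHX. It had 43 and 10 reads in Mtrex-KO against 17 and 5 in Mtrex-WT, a ratio of 3 with a counting interval of 1.8 to 5.19. The libraries overlapped, since the lower knockout library at 0.345 normalized CPM was below the higher control at 0.462. Tcf7 was well measured and nearly flat, with group means between 20.9 and 46.2 normalized CPM, a 2.22-fold span. It was at 39.5 and 32.8 in Mtrex-KO and at 47.2 and 45.3 in Mtrex-WT, lower in both by a log2 fold change of -0.38 with a standard error of 0.10. In the second Nrde2 experiment Tcf7 was at 24.9 and 27.5 against 34.3 and 31.3. Both knockout libraries were lower, by -0.33 on the log2 scale with a limma adjusted p of 0.02. Most neighbours in the order of Tcf7 levels without CHX overlapped, and the 4 CHX groups were among the 5 lowest.

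Cdx1 encodes a homeobox protein that patterns the posterior axis and is a direct Wnt target. It is on chromosome 18 from 61018862 to 61036199 on the minus strand (ENSMUSG00000024619). Cdx1 was at 9.64 and 10.1 normalized CPM in Mtrex-KO and at 53.6 and 56.4 in Mtrex-WT. The 4 libraries formed 2 distant pairs, with a log2 fold change of -2.47 and a standard error of 0.26, and read counts gave a 5.56-fold decrease with an interval of 5.09 to 6.08. In Ccdc174-dTAG, Cdx1 was at 9.42 and 7.82 against 14.4 and 12.3, lower in both by -0.63, with a limma adjusted p of 0.128. Nrde2-d200 had 35.3 and 43.7 against 31.4 and 23.5 in Nrde2-WT, above both controls by 0.53 with a limma adjusted p of 0.176, which is not called. Cdx1 thus had its highest mean in Mtrex-WT at 55 and the next in Nrde2-d200 at 39.5, which did not overlap with each other or with Nrde2-D174R at 29, while the 8 groups from Ccdc174-WT at 13.4 to Nrde2-D174R each overlapped with their neighbours.

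Mixl1 encodes a homeobox protein of the streak that directs mesendoderm. Its place is chromosome 1 from 180693043 to 180697034 on the minus strand (ENSMUSG00000026497). Mixl1 was at 0.809 and 0.716 normalized CPM in Nrde2-KO and at 0.362 and 0.413 in Nrde2-WT, higher in both knockout libraries by 0.65, with a limma adjusted p of 0.0275. The second experiment did not repeat this: 0.807 and 0.94 in the knockout stood against 0.904 and 0.898 and overlapped. In Mtrex-KO Mixl1 was at 0.277 and 0.38 against 0.843 and 0.68, lower in both with a log2 fold change of -0.81 and a standard error of 0.21. Its group means spanned 3.96-fold, from 0.328 in Mtrex-KO to 1.3 in Ccdc174-WT.

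Nkx1-2 encodes a homeobox protein of the late streak and of the progenitors that extend the body axis. It lies on chromosome 7 from 132594878 to 132599637 on the minus strand (ENSMUSG00000048528). Nkx1-2 was at 0.659 and 1.04 normalized CPM in Mtrex-KO against 19.4 and 21 in Mtrex-WT. The loss was nearly complete in both libraries, 49 reads against 1455, a 23.8-fold decrease with a counting interval of 17.9 to 32.3 and a log2 fold change of -4.24 with a standard error of 0.23. In bulk libraries such as these, fewer cells that express a gene and less of its RNA per cell cannot be told apart. Over all groups Nkx1-2 spanned 41-fold between Mtrex-KO at 0.847 and the second Nrde2-WT at 34.7. Neighbours from Nrde2-d200 at 7.54 through Nrde2-D174R at 8.08 and Ccdc174-WT at 8.4 to the libraries labelled Nrde2-KO with CHX at 9.05 overlapped, and the 4 highest groups, from Nrde2-WT at 16.7 up, stood apart from each other.

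Nkx1-2 was also lower in the NRDE2 mutant lines, which are clones other than Nrde2-WT, and in Ccdc174-dTAG. It was at 9.14 and 5.93 normalized CPM in Nrde2-d200 against 15.2 and 18.2 in Nrde2-WT. Both mutant libraries were below both controls, by -1.14 on the log2 scale with a standard error of 0.23 and a limma adjusted p of 0.0031, a called decrease. The call rests on single libraries: the adjusted p was 0.0134 without Nrde2-WT replicate 1 (-1.27), 0.0452 without Nrde2-WT replicate 2 (-1.02) and 0.0827 without Nrde2-d200 replicate 2 (-0.84). It is lost without the filter too (0.0182). Nrde2-D174R shares these controls and was at 8.17 and 8, lower in both by -1.02 with an adjusted p of 0.0355, which is not called. It is called by DESeq2 (3.5e-04) and by limma with libraries paired by replicate number (0.00196) or with only the compared groups (0.00234), and not by edgeR (0.0247) or by limma without the filter (0.127). In Ccdc174-dTAG, Nkx1-2 was at 4.41 and 2.88 against 10.2 and 6.57. The groups did not overlap, and the decrease of -1.15, standard error 0.23, is called with a limma adjusted p of 0.00313. Without Ccdc174-WT replicate 1 it was -0.84 at 0.085, and without Ccdc174-dTAG replicate 2 it was -0.86 at 0.0748. This call is also lost without the filter (0.0197) and with only the compared groups (0.0236). Full Nrde2 loss gave smaller values: 14.2 and 14.8 in Nrde2-KO against the same Nrde2-WT, lower by -0.20 with an adjusted p of 0.546, and in the second experiment 21.4 and 24.5 against 31.1 and 38.3, lower by -0.59 with an adjusted p of 0.0628. Nrde2-KO, Nrde2-d200 and Nrde2-D174R share their Nrde2-WT libraries, so these values are given side by side and whether the truncation and the knockout differ was not tested. Among cell-type markers, Dab2 (1.23) was called up in Nrde2-d200 and kept its call without each library. Gata3 (1.03) was called up there and Utf1 (-1.41) down, calls that are lost without single libraries. The markers of 2-cell-like cells Zscan4d (2.69), Gm8300 (2.51) and Tcstv3 (1.81) were higher, with calls lost in the same way. They are low in Nrde2-WT, and libraries where they are high count towards the filter, so they are given as values. The part of these markers in the Nkx1-2 decrease was not tested.

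Sp5 encodes a zinc finger protein that Wnt signalling induces directly and that acts back on other Wnt targets. It is on chromosome 2 from 70474923 to 70477729 on the plus strand (ENSMUSG00000075304). Sp5 was at 0.891 and 0.641 normalized CPM in Nrde2-d200 and at 0.82 and 1.04 in Nrde2-D174R, against 1.63 and 2.09 in Nrde2-WT. All 4 mutant libraries lay below both wild-type libraries that they share. The log2 fold change was -1.05 in Nrde2-d200 with a limma adjusted p of 0.0222, which is not called, and -0.83 in Nrde2-D174R with one of 0.162. The first is called by limma when libraries are paired by replicate number (0.00635) and with only the compared groups (0.00348). Nrde2-KO at 2.1 and 2.08 was not lower than the same controls. Mtrex-KO had 2.67 and 1.48 against 3.48 and 3.4, lower in both with a log2 fold change of -0.73 and a standard error of 0.30, and Ccdc174-dTAG had 0.443 and 0.109 against 0.52 and 0.357, which overlapped. Without CHX, the groups of Sp5 order into the Ccdc174 pair, then both NRDE2 mutants, then 5 groups from Nrde2-WT at 1.86 to the second Nrde2-WT at 2.18 that overlap with their neighbours, and then Mtrex-WT.

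**Figure D2:**
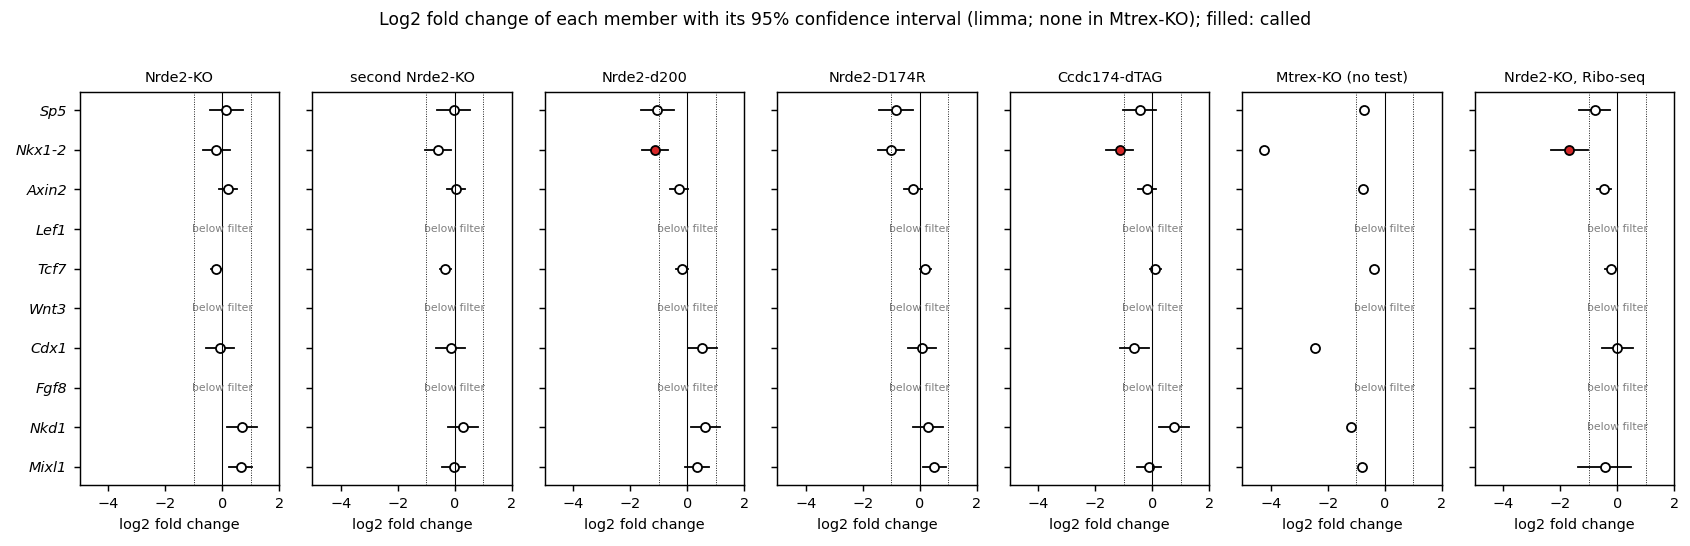
Log2 fold changes of the tested genes against their own wild type in 7 comparisons, with 95% confidence intervals except in Mtrex-KO, whose values have no test; filled points are called. Nkx1-2 is called in Nrde2-d200 (-1.14), in Ccdc174-dTAG (-1.15) and in Ribo-seq of Nrde2-KO (-1.69).

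Calls were counted over the members that passed the filter. In Nrde2-KO limma called 0 of 7, against 5.02% of all genes tested, with 2 at an unadjusted p under 0.05, as were 6149 of 14889 genes, and 0 by edgeR or DESeq2. The second Nrde2-KO also gave 0 of 7 against 4.82%, with 2 at an unadjusted p under 0.05 beside 6133 of all genes, and 0 by either other tool. The difference between both knockout experiments was called by limma for 0 of 7 members and for 0% of all genes, with 1 member and 905 of all genes at an unadjusted p under 0.05 and 0 members by edgeR or DESeq2. Nrde2-d200 had 1 of 7, Nkx1-2, against 2.63%. Nrde2-D174R had 0 of 7 by limma against 0.222%, with 3 at an unadjusted p under 0.05 beside 2602 of all genes, 0 by edgeR and 1 by DESeq2. In Ccdc174-dTAG it was 1 of 7, again Nkx1-2, against 1.40%. The Nkx1-2 calls that make up these counts are lost without single libraries, as given above with its values. The shares of all genes move as well. In Nrde2-D174R the 33 called genes became 7 or 1 without Nrde2-WT replicate 1 or 2 and 2 or 0 without Nrde2-D174R replicate 1 or 2. In Nrde2-d200, 391 became 235 or 194 without Nrde2-WT replicate 1 or 2 and 136 without Nrde2-d200 replicate 2. In Ccdc174-dTAG, 208 became 121 without Ccdc174-dTAG replicate 2, and in Nrde2-KO 747 became 489 without Nrde2-KO replicate 1. The adjusted p-values measure only the spread between libraries, because nothing in the labels says that the replicates are separate cultures.

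In Mtrex-KO all 7 genes above the filter had log2 fold changes below 0, from -4.24 for Nkx1-2 to -0.38 for Tcf7, with a median of -0.81 against -0.02 over all genes. Since the list was chosen on this contrast, the 26.7% of all genes called there is given only as background. The direction of Wnt3 and, by its total reads, Lef1 was opposite. With CPM as deposited the median of all genes is -0.38 in this comparison, and on that scale the median of the members was -1.13 and no member changed direction. The medians of the members elsewhere were 0.14 in Nrde2-KO, -0.04 in the second Nrde2-KO, -0.19 in Nrde2-d200, 0.08 in Nrde2-D174R and -0.19 in Ccdc174-dTAG, each from a mix of higher and lower genes.

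Mtrex-KO libraries also differ from Mtrex-WT in summed markers of other cell types. The counts of called markers are to be read beside the 26.7% of all genes called in this comparison. Markers that are low in Mtrex-WT can pass the filter through the Mtrex-KO libraries, so calls of such markers support nothing. Of the trophectoderm list 6 of 8 tested genes were called up, and its summed level was 559 and 596 normalized CPM in Mtrex-KO, led by Krt18, against 88.3 and 124 in Mtrex-WT, led by Krt8, with none of the 10 genes at 0. Primitive endoderm markers summed to 1116 and 1294, led by Sparc, against 709, led by Lama1, and 679, led by Sparc, with 4 of 8 called up and Amn at 0 in Mtrex-WT replicate 2. The call of Sparc (1.13) is lost without Mtrex-KO replicate 2 (1.00) and with CPM as deposited. Markers of 2-cell-like cells summed to 659 and 484 against 294 and 284, led by Eif1a, with 10 of 11 called up and none at 0. The naive list summed to 5150 and 6029 against 6662 and 6900, led by Tfcp2l1, with 1 of 12 called down, Nanog (-1.05, lost without Mtrex-WT replicate 2 at -0.95 or Mtrex-KO replicate 1 at -0.89), and none at 0. Neural ectoderm markers summed to 149.6 and 129 against 66.1 and 58.6, led by Nes, with 1 of 2 called up and Olig2 at 0 throughout, and fibroblast markers to 1713 and 994 against 1068 and 839, led by Fn1, with 1 of 4 up, 1 down and Lum at 0 throughout. The 1 up is Col1a1 (1.06), which is lost without Mtrex-WT replicate 2 (0.46), Mtrex-KO replicate 1 (1.12) or Mtrex-KO replicate 2 (1.03) and is at 1.66 without Mtrex-WT replicate 1. The part of these differences in the low Nkx1-2 and Cdx1 of Mtrex-KO was not tested. The 2 knockout libraries also differ from each other: 72.1% of the reads of replicate 1 lay in genes and 82.7% of those of replicate 2, against 86.4% and 89.3% in Mtrex-WT.

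The same Mtrex-KO libraries were read for other genes of the pathway, taken from 6 lists of 139 genes in all. Of 105 tested, 22 were called up and 16 down, 36.2% against 26.7% of all genes. Among ligands and their secretion factors 5 of 11 were up and 0 down by limma. Wnt8a was at 7.08 and 5.8 against 0.0544 and 0.142 normalized CPM, and Wnt10a at 10.3 and 7.42 against 0.136 and 0.34. Wnt7b was at 15.7 and 15 against 0.517 and 0.878, and Wnt6 at 22.4 and 21 against 1.01 and 1.67. In each case both knockout libraries lay far above both controls, with log2 fold changes of 4.21, 4.19, 4.03 and 3.79. The limma adjusted p-values of Wnt7b and Wnt6 were 1.7e-10 and 2.3e-09. Wnt8a and Wnt10a are far below the filter of 0.5 CPM in Mtrex-WT, and the knockout libraries, where they are high, count towards it. They are therefore given as values and not as calls, although the 5 and 22 called up include them. Wnt3a, another ligand of the streak, was at 3.88 and 7.94 against 5.33 and 6.57 and overlapped.

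Receptors and the destruction complex in Mtrex-KO had calls in both directions, at shares to be read beside the 26.7% of all genes. Of 20 receptors and co-receptors 2 were called up and 3 down, with the R-spondin receptor Lgr6 at 3.61 and 4.07 against 0.979 and 1.05 normalized CPM and Fzd9 at 1.91 and 2.17 against 7.56 and 7.31. Of 20 genes for β-catenin and its destruction complex 3 were up and 3 down, and β-catenin itself (Ctnnb1) was at 1048 and 1112 against 1023 and 972, a log2 fold change of 0.09 with a limma adjusted p of 0.324. Frat1, which binds GSK-3, was lower at 0.555 and 0.794 against 2.83 and 3.6. Some of these calls rest on single libraries: Kremen2 (-1.05) is lost without Mtrex-WT replicate 1 (-1.10, adjusted p 0.0284) or 2 (-1.01, 0.0436) and without Mtrex-KO replicate 1 (-1.01, 0.0365) or 2 (-1.08, 0.0239). Rnf43 (1.17) and Dvl3 (1.16) are lost without Mtrex-WT replicate 2 (0.91 and 1.02) or Mtrex-KO replicate 1 (0.91 and 0.32), and Frat2 (-1.18) without Mtrex-KO replicate 1 (-0.94). Of the 17 TCF proteins and nuclear partners 4 were called up. These 4 calls are lost without Mtrex-KO replicate 1, where Bcl9l went from 1.68 to 0.79, Crebbp from 1.28 to 0.80, Tcf7l2 from 1.17 to 0.68 and Ep300 from 1.06 to 0.50. Without Mtrex-WT replicate 2, Bcl9l (1.41), Tcf7l2 (0.82) and Ep300 (0.88) are lost as well, and with only the compared groups all 4. With CPM as deposited the calls of Crebbp, Tcf7l2 and Ep300, and those of Rnf43 and Dvl3, are lost.

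Other Wnt targets and streak genes had calls both ways in Mtrex-KO too, beside 26.7% of all genes called. Of 23 other target and feedback genes 7 were up and 4 down. The secreted Wnt antagonists went in opposite directions, with Sfrp1 at 55.1 and 71.7 normalized CPM against 375 and 323, and Dkk1 at 10.6 and 6.38 against 0.299 and 0.736. Id2, a target shared with BMP signalling, rose to 70.1 and 54.9 from 4.51 and 3.17. Of 19 streak and mesoderm genes 4 were up and 6 down. T, the streak marker brachyury, was at 0.416 and 0.449 against 1.82 and 1.33, with a log2 fold change of -1.41. It is near the filter, falls below it without some single libraries, and the Mtrex-WT libraries, where it is high, count towards it. T is therefore given as values and not as a call, although the 6 and 16 called down include it. Fgf3 at 0.936 and 1.1 against 9.84 and 10, and Gsc at 0.312 and 0.311 against 2.12 and 2.89, were lower as well, while Eomes at 13.3 and 18.4 against 11.4 and 14.3 overlapped and Cdx2, also a trophectoderm marker, was higher at 3.85 and 4.28 against 1.28 and 1.1.

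These 105 genes were also counted in the NRDE2 and CCDC174 comparisons, beside the share of all genes. Nrde2-KO had 4 up and 3 down (6.67% against 5.02%), and the second Nrde2-KO 2 up and 5 down (6.67% against 4.82%). Nrde2-d200 had 2 and 2 (3.81% against 2.63%), Ccdc174-dTAG 0 up and 2 down by limma (1.9% against 1.40%), and Nrde2-D174R 0 by limma, with 17 at an unadjusted p under 0.05, as were 2602 of all 14889 genes, and 0 by edgeR or DESeq2. The shares of all genes move without single libraries by the counts given above.

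Many of these calls rest on single libraries. In Nrde2-KO, Cdx2 (1.30) is lost without Nrde2-WT replicate 1 (1.09) or Nrde2-KO replicate 1 (1.08), and Bmp4 (-1.31) without Nrde2-WT replicate 2 (-1.01) or Nrde2-KO replicate 1 (-1.06). Gad1 is lost there without Nrde2-WT replicate 1 (-1.13) or 2 (-1.14) or Nrde2-KO replicate 1 (-0.97), and Fgf15 without Nrde2-WT replicate 1 (-1.30) or 2 (-1.27) or Nrde2-KO replicate 1 (-1.38) or 2 (-1.20). In the second experiment Cdx2 (1.35) is lost without Nrde2-WT replicate 1 (1.31) or Nrde2-KO replicate 1 (1.24), Ccnd1 (-1.01) without Nrde2-WT replicate 2 (-0.71) or Nrde2-KO replicate 1 (-0.95), and Gad1 without Nrde2-WT replicate 1 (-1.22) or 2 (-0.86) or Nrde2-KO replicate 1 (-0.70). Without Nrde2-d200 replicate 2 all 4 calls of Nrde2-d200 are lost: Apcdd1 (1.18), Kdr (1.54), Gad1 (-1.01) and Bmp4 (-1.50). Gad1 and Kdr are lost as well without Nrde2-WT replicate 1 (-1.34 and 1.57), and Gad1 and Bmp4 without Nrde2-WT replicate 2 (-1.35 and -1.20). The 2 calls of Ccdc174-dTAG, Gad1 and Bmp4, are lost without Ccdc174-WT replicate 1 (-0.99 and -1.21) or 2 (-1.26 and -1.46) or Ccdc174-dTAG replicate 2 (-0.97 and -1.22), and Gad1 also without Ccdc174-dTAG replicate 1 (-1.28).

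Wnt8a was the ligand that was higher in both knockout experiments by the counts above. It was at 2.07 and 2.2 normalized CPM in Nrde2-KO against 0.0904 and 0.155, and at 2.58 and 1.13 against 0.0875 and 0.18 in the second experiment. The ranges were far apart both times. In Nrde2-WT it is far below the filter of 0.5 CPM, and the knockout libraries, where it is high, count towards it. Wnt8a is therefore given as values and not as a call, although the counts above include it. Lgr6 was called in the first experiment, at 3.72 and 3.03 against 0.844 and 0.878, with a limma adjusted p of 1.7e-05. In the second experiment the BMP ligand Bmp4 was at 7.48 and 7.08 against 21.1 and 29.3 and the chromatin remodeller Smarca4 at 162 and 149.9 against 325 and 338, both lower in both libraries. Ctnnb1 had log2 fold changes between 0.07 and 0.18 in these 5 comparisons and was not called in any. Markers of 2-cell-like cells were called up for 9 of 11 genes in Nrde2-KO, beside 5.02% of all genes called. They summed to 292 and 290.1 against 293 and 321 because Eif1a dominates the sum, with Spz1, Tcstv1 and Tdpoz4 at 0 in 1 or both Nrde2-WT libraries. Apart from Eif1a they are low in Nrde2-WT, and libraries where they are high count towards the filter, so this count supports nothing. Of other cell-type markers, Gata6 (1.76 and 2.15), Dab2 (1.03 and 1.42) and Gata3 (1.35 and 1.24) were called up in the first and second experiment. Vim (-1.21 and -1.13) was called down in them. Without single libraries these calls are lost, except those of Gata6 and Dab2 in the second experiment, where Gata6 was between 1.39 and 2.92. The part of these markers in the Wnt8a result was not tested.

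Among the 7 members that pass the filter without CHX, it gave calls for Sp5 and Nkx1-2. Sp5 was at 1.87 and 2.49 normalized CPM without and 18 and 17.2 with CHX in Nrde2-WT of the second experiment. In the libraries labelled Nrde2-KO it went from 2.52 and 1.77 to 28.8 and 19.7, in the Ccdc174 pair from 0.52 and 0.357 to 5.08 and 4.56 for wild type, and for Ccdc174-dTAG from 0.443 and 0.109 to 1.07 and 0.781. Every CHX library was above every untreated library of its genotype. The limma log2 fold changes were 2.89, 3.32, 2.89 and 1.23, each with a standard error of 0.28, and the adjusted p-values 7.2e-07, 1.6e-07, 6.0e-07 and 0.00153. In Ccdc174-WT the alternatives gave between 2.03 and 3.48, the latter by edgeR, and kept the call. The call in Ccdc174-dTAG is lost without its untreated replicate 2 (0.75, adjusted p 0.0311) and without its CHX replicate 1 (1.05, 0.0215). With 1 added before the log (0.61, 0.0106) and with only the compared groups (1.23, 0.0115) it is lost too.

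With CHX present, Sp5 differed between Ccdc174-dTAG and Ccdc174-WT. The 1.07 and 0.781 of the depleted cells against 5.08 and 4.56 give a log2 fold change of -2.15, standard error 0.18, and a limma adjusted p of 4.4e-05. Both depleted libraries were well below both controls. The difference between this and the untreated comparison, tested as an interaction, was -1.66 with a standard error of 0.40 and a limma adjusted p of 0.0859, and so is not called. Neural ectoderm markers summed to 144 and 142 normalized CPM in Ccdc174-dTAG with CHX against 222 and 231, led by Nes. Primitive endoderm markers summed to 367 and 373 against 502 and 522, led by Sparc. Pax6 was called down (-1.09), a call lost without single libraries (-0.98 and -0.99). Their part in the Sp5 difference was not tested. Sp5 was the called gene among 8 members in this comparison, against 0.976% of all genes, which are 151 genes and 100 without Ccdc174-WT CHX replicate 1, 98 without Ccdc174-dTAG CHX replicate 1 and 86 without its replicate 2. Nkx1-2 was at 1.76 and 1.03 against 4.61 and 1.83, lower in both by -1.0 with an adjusted p of 0.0626, which is not called. It was -1.61 (0.00489, called) without Ccdc174-WT CHX replicate 2 and -0.39 without Ccdc174-WT CHX replicate 1, and a fit that pairs libraries by their replicate number calls it at 2.0e-05. In the libraries labelled Nrde2-KO with CHX limma called 0 of 8 members against 4.65% of all genes, with 3 at an unadjusted p under 0.05, as were 7924 of 15476 genes, and 0 by edgeR or DESeq2. The interaction of CHX with Nrde2-KO was called for 0 of 8 members by limma against 0.152%, with 0 at an unadjusted p under 0.05 beside 2283 of 15133 genes and 0 by the other tools. That with Ccdc174-dTAG was called for 0 of 8 against 0.0595%, with 1 at an unadjusted p under 0.05 beside 1455 of all genes and 0 by the other tools. Lef1 is among the 8 members of each of these counts although it passed the filter through the CHX libraries, so its tests support nothing. It had no unadjusted p under 0.05 in any of them, and the counts are read for the other members. The shares of all genes for the interactions are of 23 and 9 genes. The 23 became 10 without the untreated Nrde2-WT replicate 1, 9 without the untreated Nrde2-KO replicate 2, 9 or 5 without Nrde2-WT CHX replicate 1 or 2, and 5 without replicate 1 of the libraries labelled Nrde2-KO with CHX. The 9 became 16 without the untreated Ccdc174-dTAG replicate 1, 3 or 5 without Ccdc174-WT CHX replicate 1 or 2, and 3 or 4 without Ccdc174-dTAG CHX replicate 1 or 2.

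Nkx1-2 went the opposite way to Sp5. From 31.1 and 38.3 normalized CPM in the second Nrde2-WT it went to 11 and 15.8 with CHX, and in the libraries labelled Nrde2-KO from 21.4 and 24.5 to 8.51 and 9.6. In Ccdc174-WT it went from 10.2 and 6.57 to 4.61 and 1.83, and in Ccdc174-dTAG from 4.41 and 2.88 to 1.76 and 1.03. Each CHX library was below each untreated library of its genotype. The log2 fold changes were -1.38, -1.35, -1.42 and -1.27, each with a standard error of 0.34, and limma's adjusted p-values were 0.00247, 0.00274, 0.00185 and 0.00416. These 4 calls depend on the filter, without which the adjusted p-values are 0.016, 0.0163, 0.0126 and 0.0233, and on single libraries. In Nrde2-WT the call is lost without the untreated replicate 2 (-1.24, adjusted p 0.0243) or CHX replicate 1 (-1.13, 0.0345). For the libraries labelled Nrde2-KO it is lost without the untreated replicate 2 (-1.25, 0.0229) or either CHX replicate (-1.27, 0.0231 and -1.43, 0.0123). In Ccdc174-WT it is lost without the untreated replicate 1 (-1.12, 0.0298) or CHX replicate 2 (-0.81, 0.0439), and the value is -2.04 without CHX replicate 1. In Ccdc174-dTAG it is lost without the untreated replicate 1 (-0.99, 0.046) or CHX replicate 2 (-0.95, 0.0597), and also with 1 added before the log (-0.97), with CPM as deposited (-1.05, 0.0121) and by edgeR (-1.34, 0.0107).

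Lef1 and Tcf7 act on the same DNA motif. Lef1 was at 0.175 and 0.27 normalized CPM in the second Nrde2-WT and at 1.08 and 1.57 with CHX, and in the libraries labelled Nrde2-KO at 0.528 and 0.221 and then at 0.91 and 1.05. The CHX libraries were higher without overlap in both genotypes, with log2 fold changes of 1.73 and 1.00. In Ccdc174-WT and Ccdc174-dTAG they were 0.67 and 0.59. The value in the libraries labelled Nrde2-KO was 0.64 without the untreated replicate 2 and 0.53 with 1 added before the log, and that in Nrde2-WT 0.93 with 1 added. Tcf7 fell in all 4 genotypes, by log2 values of -0.58, -0.36, -0.45 and -0.47 with limma adjusted p-values of 3.8e-05, 0.00211, 3.3e-04 and 2.6e-04, which are below the fold threshold. With CPM as deposited the median of all genes under CHX is 0.20, 0.20, 0.21 and 0.24 in place of 0.00, 0.00, -0.02 and 0.00, and on that scale Axin2 in Nrde2-WT went from -0.02 to 0.19.

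Over the 7 members other than Lef1, CHX gave 1 called up, Sp5, and 1 down, Nkx1-2, in each genotype. In untreated Ccdc174-WT and Ccdc174-dTAG mean Sp5 was under 0.5, at 0.439 and 0.276 normalized CPM, and other libraries, where it is higher, count towards the filter. Of all genes 14.1% were called in Nrde2-WT, 13.9% in the libraries labelled Nrde2-KO, 15.3% in Ccdc174-WT and 14.4% in Ccdc174-dTAG. Sp5 in Nrde2-WT, in the libraries labelled Nrde2-KO and in Ccdc174-WT kept its call without each library, and the single libraries on which the Nkx1-2 calls and the remaining Sp5 call rest are given above.

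**Figure D3:**
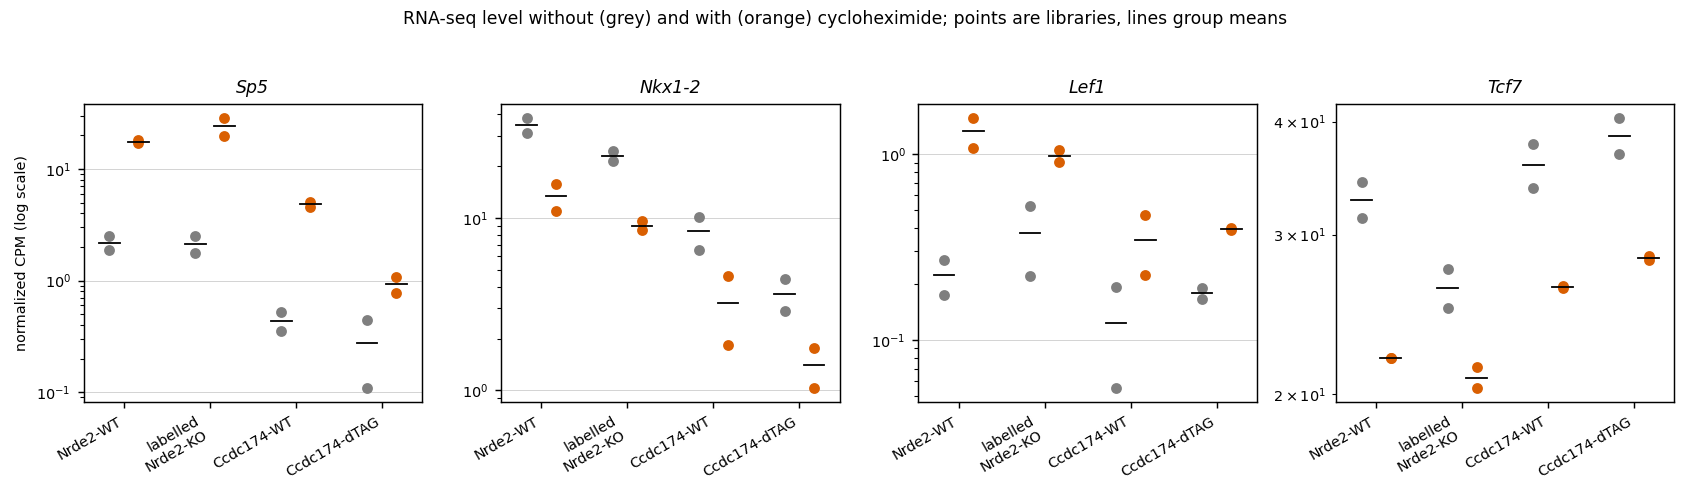
Normalized CPM of Sp5, Nkx1-2, Lef1 and Tcf7 without and with CHX in 4 genotypes, 1 point per library. Sp5 rises and Nkx1-2 falls with CHX in each genotype, and the Sp5 libraries of Ccdc174-dTAG with CHX, at 1.07 and 0.781, stay below those of Ccdc174-WT with CHX, at 5.08 and 4.56.

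Other genes of the pathway were counted under CHX beside the share of all genes. Of 109 tested list genes 13 were up and 5 down in Nrde2-WT (16.5% against 14.1%) and 19 and 5 in the libraries labelled Nrde2-KO (22% against 13.9%). Of the Ccdc174 pair it was 16 and 5 in the wild type (19.3% against 15.3%) and 14 and 5 in the depleted cells (17.4% against 14.4%). The target Id2 rose from 3.71 and 5.15 to 102 and 115 normalized CPM in Nrde2-WT, and the antagonist Dkk1 from 0.759 and 0.359 to 6.05 and 5.74. Like Sp5, Dkk1 was lower in Ccdc174-dTAG with CHX than in its control with CHX, at 1.91 and 2.09 against 5.64 and 6.7, with a log2 fold change of -1.52 and a limma adjusted p of 2.9e-04. The streak ligand Wnt3a fell in Nrde2-WT from 3.5 and 3.44 to 1.17 and 0.676, and Ctnnb1 had log2 fold changes between -0.55 and -0.69 in the 4 genotypes, below the fold threshold and not called. Of the primed epiblast markers, 3 of 6 tested were up and 1 down in each genotype, summing to 290.5 and 351 with CHX in Nrde2-WT, led by Zic2, against 158 and 212 without, led by Dnmt3b and with Fgf5 at 0 in replicate 1. In Ccdc174-WT their sum was 168 and 149 against 152 and 134. Naive markers summed to 4492 and 4474 with CHX in Nrde2-WT against 6466 and 6283, with Nanog called down in each genotype (-1.16, -1.29, -1.26 and -1.44). Tfcp2l1, another naive marker, was called down in Nrde2-WT (-1.34), Ccdc174-WT (-1.42) and Ccdc174-dTAG (-1.13). Of the neural markers Pax6 was called up in each, by 3.74, 2.85, 4.55 and 3.02. Their part in the Sp5 and Nkx1-2 changes was not tested.

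Ribo-seq shows how many ribosome-protected reads these RNAs gave with and without NRDE2. Nkx1-2 was at 1.97 and 1.04 normalized CPM in Nrde2-KO, from 11 and 8 reads, against 4.94 and 5.45 in Nrde2-WT, from 38 and 41. Both knockout libraries were lower, by -1.69 on the log2 scale with a standard error of 0.32 and a limma adjusted p of 3.7e-04. DESeq2 gave an adjusted p of 0.0121 and limma without the filter 0.0161, so the call is lost in both, and it was kept without each library. Axin2 was at 14.7 and 15.9 against 22.2 and 20.5, lower in both by -0.47 with an adjusted p of 0.00748, below the fold threshold. Sp5 was at 2.15 and 2.46 against 4.03 and 4.39, lower in both by -0.80 with an adjusted p of 0.0331. Tcf7 at 31 and 33.8 against 37.6 and 39.2 was lower by -0.24 with an adjusted p of 0.0708, and Cdx1 at 6.63 and 3.63 overlapped with 5.2 and 4.65. Limma called 1 of 6 members, Nkx1-2, against 6.42% of all genes. With CPM as deposited the median of all genes is 0.15 in Ribo-seq, and of the members only Cdx1, at 0.00, changed sign on that scale. Cell-type markers called in the same libraries include Utf1 (-1.91), Vim (-1.78) and Krt8 (-1.15) down and Col1a1 (2.46), Gata6 (1.77) and Gata3 (1.12) up. The calls of Krt8, Gata6 and Gata3 are lost by DESeq2, and those of Gata6 and Gata3 also without single libraries. Primed epiblast markers summed to 225 and 128 normalized CPM in Nrde2-KO against 105 and 114. Their part in the Nkx1-2 change was not tested.

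In RNA-seq of the same genotypes Nkx1-2, Axin2 and Sp5 had changed by -0.20, 0.20 and 0.14 in the first and by -0.59, 0.06 and -0.03 in the second experiment, and the Ribo-seq change was set against the RNA-seq change of the first experiment. Ribo-seq minus RNA-seq was -1.56 for Nkx1-2, standard error 0.34, with a limma adjusted p of 0.0119. It was -0.70 for Axin2 with an adjusted p of 0.0211, -0.98 for Sp5 with 0.0728 and -1.08 for Mixl1 with 0.139. The value of Mixl1 hangs on the RNA-seq, which changed by 0.65 in the first and by -0.04 in the second experiment, and with RNA-seq of the second it is -0.47. None passes the threshold by limma: 0 of 7 members are called against 1.12% of all genes, with 4 at an unadjusted p under 0.05, as were 4363 of 14700 genes, and 1, Nkx1-2, by edgeR and by DESeq2. The 1.12% are 164 genes, and between 41 and 96 without any 1 of the 8 libraries. Nkx1-2 is called by limma without Ribo-seq Nrde2-KO replicate 1 (-1.96, adjusted p 0.00811).

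Of the pathway lists 99 genes were tested in Ribo-seq, with 8 called up and 4 down by limma (12.1% against 6.42% of all genes), 12 by edgeR and 7 by DESeq2. The cell-type markers given above with Ribo-seq changed in the same libraries, and their part in these counts was not tested. The cell cycle gene Ccnd1, a Wnt target in several tissues, was at 44.2 and 41.3 normalized CPM against 133 and 128. Myc, another such target, was at 5.01 and 6.61 against 14.2 and 13.6. Both were lower without overlap, by -1.60 and -1.23 with limma adjusted p-values of 5.1e-11 and 2.9e-05. Among genes that rose were Lgr6, at 9.31 and 5.83 against 0.91 and 1.46, and the streak ligand Nodal, at 467 and 457 against 166 and 181.

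Across the 14 RNA-seq groups, genes with patterns most like those of 2 members were looked up among 15219 genes, as a description without a p. Pearson's r with Nkx1-2 was 0.96 for Tsen34, 0.95 for Cdhr1, 0.95 for Nedd8, 0.94 for Zdhhc23 and 0.91 for Rnaseh2b. With Axin2 it was 0.79 for Taf2, 0.77 for Prim2, 0.76 for Tspan7, 0.75 for Ube2e2 and 0.73 for Tgfbr1. Among the members themselves r was 0.75 between Sp5 and Lef1, 0.73 between Cdx1 and Fgf8, 0.72 between Nkx1-2 and Cdx1 and -0.68 between Sp5 and Tcf7. Nkx1-2 and Sp5 had 0.23. Groups of 1 line or experiment share their background, so the points are not independent.

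TCF/LEF proteins bind a motif with the core CTTTGAT, so the promoters of the members were searched for it on both strands, where its reverse reads ATCAAAG, and for the shorter CTTTGA (reverse TCAAAG), which CTTTGAT contains. The sequences are RefSeq promoters on GRCm38.p6, 300 bases from 250 before to 50 after each annotated start. Of 9 members searched 7 had an entry, with 11 windows, and Fgf8 and Mixl1 had none; Cdx1 was not searched. CTTTGAT was found in 1225 of 32851 windows of all genes (3.73%) and in 1 of the 11 member windows, that of Sp5 at chr2:70474819-70474825. CTTTGA was found in 5257 windows (16%) and in 2 of the 11, the same Sp5 window and 1 of 4 windows of Lef1. A match is a description and not a binding site, and no match says only that these letters are not in this window. The windows of Axin2, Tcf7, Wnt3, Nkd1 and Nkx1-2 and the other 3 of Lef1 hold neither. Shown are the Sp5 window, which holds the core, the Lef1 window, which lies inside the gene and holds only the shorter motif, and for comparison Nkx1-2, the member with the lowest Mtrex-KO fold change; capitals mark these motifs on either strand. Sp5 is the plus strand of chr2:70474673-70474972, Lef1 the plus strand of chr3:131156044-131156343, and Nkx1-2 the minus strand of chr7:132599588-132599887.
Sp5: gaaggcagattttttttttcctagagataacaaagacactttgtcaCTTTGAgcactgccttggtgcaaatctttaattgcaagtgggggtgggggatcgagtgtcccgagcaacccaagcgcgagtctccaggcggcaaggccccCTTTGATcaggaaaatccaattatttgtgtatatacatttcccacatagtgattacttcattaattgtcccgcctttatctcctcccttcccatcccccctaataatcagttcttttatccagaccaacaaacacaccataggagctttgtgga
Lef1: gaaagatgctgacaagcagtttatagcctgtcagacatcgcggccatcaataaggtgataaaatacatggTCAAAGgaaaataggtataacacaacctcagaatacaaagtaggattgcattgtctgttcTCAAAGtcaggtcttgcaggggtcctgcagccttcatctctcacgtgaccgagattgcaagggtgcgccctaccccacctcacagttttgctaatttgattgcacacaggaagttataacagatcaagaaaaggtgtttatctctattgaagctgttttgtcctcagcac
Nkx1-2: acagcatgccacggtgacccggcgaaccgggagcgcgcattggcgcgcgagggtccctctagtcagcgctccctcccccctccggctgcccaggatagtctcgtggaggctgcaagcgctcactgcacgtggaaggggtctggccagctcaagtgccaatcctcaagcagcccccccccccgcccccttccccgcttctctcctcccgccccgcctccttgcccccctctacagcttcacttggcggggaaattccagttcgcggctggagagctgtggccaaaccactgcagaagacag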

How the data were processed

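RNA-seq libraries (28) and Ribo-seq libraries (4) of mouse embryonic stem cells were used, with 2 libraries in each group. The authors aligned the reads to the mouse genome mm10 with STAR 2.7.3a, counted uniquely mapped reads per gene and strand with featureCounts on GENCODE annotation, and deposited them as CPM, counts scaled to the size of each library. Whole reads were recovered from the CPM values, and 100.0% of the values were whole within 0.1 reads. Between 72.1% and 92.1% of the reads by which the RNA-seq values had been divided lay in genes, and between 61.4% and 66.8% of those of Ribo-seq. Genes were named by GENCODE M21 on GRCm38, which holds 55154 of the 55335 identifiers.

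For tests, each library was scaled by its median ratio to a reference of all libraries, 0.25 was added to the CPM, and log2 values were fitted with limma 3.58.1 (trend) in R 4.3.3. The fits covered 20 libraries without CHX (14889 genes), 8 with CHX (15476), the 16 of both CHX experiments (15133), 4 of Ribo-seq (13857), and Ribo-seq with RNA-seq of the first Nrde2 experiment (14700). A fit took in the genes whose deposited CPM averaged 0.5 or more over its libraries. A change was called at a Benjamini-Hochberg adjusted p below 0.01 over all genes of the fit, if the log2 fold change also exceeded 1 in either direction, as in the study. Intervals of read ratios are exact binomial ones. Printed levels use factors over all 28 RNA-seq libraries, or over the 4 Ribo-seq libraries; levels per kilobase use the union of exons.

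The members and the gene lists were chosen with earlier results of these data known. Members have no test in Mtrex-KO, the contrast that chose them. Besides the members, the genes named are up to 4 called genes per pathway list and comparison with the largest change in 1 direction in both libraries, a set of pathway and streak genes named whatever their values, the targeted genes, and the 5 genes most alike in pattern. The lists cover ligands, receptors, the destruction complex, TCF partners, other targets and streak genes. Marker lists cover naive embryonic stem cells, primed epiblast, primitive endoderm, trophectoderm, neural ectoderm, fibroblasts and 2-cell-like cells.

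Alternatives were 0.1 or 1 added before the log, no filter or at least 1 CPM, CPM as deposited, the replicate number as a block, only the compared groups, the second experiment, edgeR 4.0.16 and DESeq2 1.42.0 on the recovered reads, and leaving out each library. The calls were tested on simulated data. Alignments and the other assays of the study were not used here.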

Additional observations from a re-analysis of the deposited data

Results flagged for a closer look

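Tests of a difference between groups covered 8 members for CHX and 7 for Ribo-seq against RNA-seq, without Wnt3 and Fgf8. Of the 8, Lef1 passed the filter through the CHX libraries, so its tests support nothing and the counts are read for the other members. Lef1 had no unadjusted p under 0.05 for either interaction. For the interactions of CHX limma gave 0 calls among 8 members, with 0 (Nrde2-KO) and 1 (Ccdc174-dTAG) at an unadjusted p under 0.05, beside 2283 and 1455 of 15133 genes, and 0 by edgeR and DESeq2. For Ribo-seq against RNA-seq it gave 0 among 7, with 4 at an unadjusted p under 0.05, beside 4363 of 14700 genes, and 1, Nkx1-2, by edgeR (adjusted p 0.00362) and by DESeq2 (0.00176). Among the genes of the pathway lists and the targeted genes, 6 differences were past the threshold. Of the cell-type markers named here, Col1a1 was past it in Ribo-seq against RNA-seq (1.86, adjusted p 0.00849), and that call is lost without any 1 of the 8 libraries, with values from 1.72 (0.048, without RNA-seq Nrde2-KO replicate 2) to 2.00 (0.0317, without its replicate 1).

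Nrde2 itself responded to CHX differently by genotype. CHX raised Nrde2 RNA by 2.13 on the log2 scale in Nrde2-WT and by 3.63 in the libraries labelled Nrde2-KO, a difference of 1.5 with a limma adjusted p of 1.3e-06. Both CHX libraries were higher in each genotype, and the call was kept without each of the 8 libraries. The cause was not tested.

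On loss of NRDE2, Ribo-seq changed differently from RNA-seq for 164 genes (1.12%), of which 5 are pathway or targeted genes. That number is 0 without the filter. It is 41 or 57 without Ribo-seq Nrde2-WT replicate 1 or 2, 56 or 50 without Ribo-seq Nrde2-KO, 61 or 96 without RNA-seq Nrde2-WT and 60 or 84 without RNA-seq Nrde2-KO. Ccnd1 was at 44.2 and 41.3 against 133 and 128 normalized CPM in Ribo-seq and at 70.6 and 67 against 88.8 and 102 in RNA-seq, a difference of -1.15 with a limma adjusted p of 5.5e-04. Fgf4 was at 180.3 and 193 against 127 and 122 in Ribo-seq, a difference to RNA-seq of 1.07 with an adjusted p of 4.9e-04. Both calls were kept without each of the 8 libraries, and both are lost without the filter and with RNA-seq of the second experiment. The cause was not tested.

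Nrde2, Bambi and Fst were past the threshold as well, and their calls rest on single libraries. Nrde2 differed by -1.17 with a limma adjusted p of 0.00716. Without RNA-seq Nrde2-WT replicate 1 or 2 it was -1.19 (0.03) or -1.15 (0.0266), and without RNA-seq Nrde2-KO replicate 1 or 2 it was -1.20 (0.0255) or -1.13 (0.0293). Without Ribo-seq Nrde2-WT replicate 1 or 2 it was -1.28 (0.0186) or -1.07 (0.029), and without Ribo-seq Nrde2-KO replicate 1 it was -0.93 (0.0174). Only without Ribo-seq Nrde2-KO replicate 2 was the call kept. Bambi, an inhibitor of BMP signalling, was at 16.1 and 15.3 against 8.71 and 9.44 in Ribo-seq and differed by 1.07 with an adjusted p of 0.00772. Leaving out RNA-seq Nrde2-WT replicate 1 or 2 gave 1.20 (0.0146) or 0.92 (0.0332), RNA-seq Nrde2-KO 0.95 (0.0383) or 1.18 (0.0155), Ribo-seq Nrde2-WT 1.01 (0.0262) or 1.12 (0.0197), and Ribo-seq Nrde2-KO 1.04 (0.0258) or 1.10 (0.0212). Fst, a binder of activin, was at 15.4 and 15.9 against 6.11 and 6.25 and differed by 1.10 with an adjusted p of 0.00802. In the same order it was 1.24 (0.014) or 0.94 (0.0343), 0.95 (0.0427) or 1.25 (0.0133), 1.08 (0.0256) or 1.11 (0.0235), and 1.13 (0.0243) or 1.07 (0.0266).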

How the results depend on the processing

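Of 1629 recomputed log2 fold changes of members, 1580 kept their side of the threshold, of which 85 uncalled values changed sign, 37 fell below it, 12 passed it and 0 reversed past it. Alternatives are listed by comparison, with the number of members called and the median log2 fold change; ranges cover leaving out each library, where a lone library of a group is assumed to vary like the other groups. The cause of these differences was not tested.

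Nrde2-KO: the median of 0.14 was -0.04 in the second experiment. In Nrde2-d200 (1 called, median -0.19), no filter gave 0 called and -0.05, the replicate block 2, only the compared groups 2 and -0.24 (Sp5 added in both), at least 1 CPM -0.23, DESeq2 -0.08, and single libraries 0 to 1 and -0.24 to -0.14. In Nrde2-D174R (0 by limma, 0.08), the block, DESeq2 and the compared groups gave 1, at least 1 CPM -0.09, DESeq2 0.20, and single libraries -0.14 to 0.24. In Mtrex-KO (-0.81), 0.1 added gave -1.02, at least 1 CPM -0.98, CPM as deposited -1.13, edgeR -1.22, and single libraries -1.0 to -0.71. In Ccdc174-dTAG (1), no filter and the compared groups gave 0 and single libraries 0 to 1. The second Nrde2-KO median (-0.04) ranged from -0.26 to 0.16, and the second minus the first (-0.17) from -0.40 to -0.06.

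In the libraries labelled Nrde2-KO with CHX (-0.01), no filter gave 0.13, at least 1 CPM 0.22, and single libraries -0.10 to 0.17. In Ccdc174-dTAG with CHX (1), the block gave 2, with Nkx1-2 added, and single libraries 1 to 2. The counts and medians for the effect of CHX include Lef1, which passed the filter through the CHX libraries and is not read as a call, so they support nothing; in each count of 3 the other 2 are Sp5 and Nkx1-2. For CHX in Nrde2-WT (3, -0.12), at least 1 CPM gave -0.30, CPM as deposited 0.07, and single libraries 1 to 3 and -0.22 to -0.12. In the libraries labelled Nrde2-KO (3, 0.06), no filter gave 1, and single libraries 1 to 3 and -0.24 to 0.24. In Ccdc174-WT (2, -0.34), no filter gave 1, CPM as deposited -0.12, and single libraries 1 to 2. In Ccdc174-dTAG (2, -0.36), 1 added gave 0, no filter, CPM as deposited, edgeR and the compared groups 1, CPM as deposited -0.11, and each single library 1. In Ribo-seq (1, -0.46), no filter gave 0 and -0.12, DESeq2 0 and -0.35, 1 added -0.35, CPM as deposited -0.33 and edgeR -0.52. For Ribo-seq minus RNA-seq (0 by limma, -0.70), 1 added, at least 1 CPM, edgeR and DESeq2 gave 1, no filter -0.20, DESeq2 -0.31, RNA-seq of the second experiment -0.47, and single libraries 0 to 1.

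Replicate numbers may or may not mark libraries handled together: correlations of replicate differences between groups were between -0.03 and 0.41. They were 0.18 to 0.38 within the Ccdc174 experiment, 0.12 to 0.37 within the second Nrde2 experiment and 0.41 for Mtrex. The values of -0.03 are those between Nrde2-WT and Nrde2-d200 and in Ribo-seq.

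Limits: with 2 libraries per group, changes of weakly expressed members such as Lef1, Wnt3, Fgf8, Nkd1 and Mixl1 can be missed. The lines are clones grown with a GSK-3 inhibitor, so these data do not show how the genes respond to a Wnt ligand. Loss of a protein cannot be told apart from the drug or from Cre, and an NRDE2 mutation cannot be told apart from a difference between clones. RNA and ribosome-protected reads were measured, and not the proteins.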
